A study of Papio hamadryas with 72 samples.

Results

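The liver of 10 juvenile baboons (Papio hamadryas, 4.5 years old) was compared on chow and after 7 weeks of an HFCS diet, with each animal as its own baseline. HFCS is a Western-style diet high in fat, simple sugar and salt, given with a fructose drink. The comparison holds 20 arrays, of 24 liver arrays and 72 arrays of liver, omental adipose tissue and skeletal muscle in all. They were chosen as every liver pair in which neither array was weak, and both maternal groups were pooled.

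The 6 CON animals (3 females and 3 males) had mothers that ate freely. The 4 MUN animals (3 females and 1 male) had mothers whose food was restricted in pregnancy and lactation. All animals ate chow at week 0 and HFCS at week 7, with no chow-only animals for comparison. Effects of the diet, of the weeks that passed and of the first biopsy therefore cannot be told apart. Each sample was a needle biopsy of the right lobe, taken after an overnight fast, and each was hybridised once, so the pairs are separate animals. Males MUN 4 and MUN 6 were left out: their median correlation with the other liver arrays was 0.522 and 0.684 on chow, and that of MUN 4 was 0.081 on HFCS, while the HFCS array of MUN 6 (0.969) was left out with its pair. The group therefore kept 1 MUN male.

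The kept arrays correlated at 0.964 to 0.977 with the other liver arrays, and between 10870 and 13453 probes were detected on each. The array was designed for human transcripts, and 13688 of its 47231 probes were kept, which gave 8725 genes with 1 probe each, the brightest. Levels are log2 probe signals after quantile normalisation, so they show differences between arrays for a gene and not the order of genes. A gene was called changed at an adjusted p under 0.05 with at least a 1.2-fold difference in limma's paired test. In a bulk biopsy, fewer cells of a type and less RNA per cell cannot be told apart.

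The liver takes up sugar and fat from the portal blood, turns the excess into triglyceride, and secretes lipoproteins, clotting factors and hormone carriers. Fructose is handled mainly in this organ, and nutrient excess is known to act on lipid synthesis (through SREBP-1c and ChREBP), cholesterol synthesis (through SREBP-2), bile acid synthesis and the folding capacity of the endoplasmic reticulum. Hepatocyte markers identified the tissue: 10 of 10 were measured, with albumin (ALB) at a median level of 14.38 on chow and 14.39 on HFCS. Of 10 skeletal muscle markers 1 was measured, of 9 cholangiocyte markers 1, and of 8 adipocyte markers 3.

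No gene was called for the HFCS response shared by both maternal groups (0 of 8725, 0.0%), and the smallest adjusted p was 0.163. An ordinary F-test of the same pairs also called 0 genes, with 541 at an unadjusted p under 0.05. By limma 569 genes (6.52%) had such a p, 305 of them higher (3.5%) and 264 lower on HFCS (3.03%). Over all genes, the median change without its sign was 0.043 log2 units, on signals without background correction. This is below the median standard error of 0.058, so it does not measure the size of a shared response. The pooled change was 1 unit or more for 4 genes. Of all genes, 49.9% had a change above 0. Levels were higher on HFCS in all 10 animals for 14 genes (0.16%) and lower in all 10 for 20 genes (0.229%). The genes named next had the smallest p in each direction and were chosen after their values were seen. None of them met the threshold, so their values are a description.

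The genes with the smallest p were lower on HFCS in both groups. PSME4, the proteasome activator PA200, lay between 9.12 and 9.63 on chow (median 9.36) and between 8.71 and 9.30 on HFCS (median 9.06). The ranges overlapped, yet every animal was lower on HFCS, by 0.34 on average (SE 0.05, adjusted p = 0.163, n = 10). The mean change was -0.28 in CON and -0.42 in MUN. ALDH1A1, which oxidises retinal to retinoic acid, was also lower in all 10 animals, from 12.71 to 13.31 (median 13.12) on chow and from 12.41 to 13.02 (median 12.78) on HFCS. Its change was -0.34 (SE 0.06, adjusted p = 0.163), with -0.32 in CON and -0.37 in MUN. HHIP, which binds hedgehog ligands, had a change of -0.44 (SE 0.08, adjusted p = 0.163), from a chow median of 8.69 (range 8.41 to 8.99) to 8.35 (range 7.63 to 8.54). It was lower in 9 of 10 animals. Without animal CON 3, PSME4 (-0.37, adjusted p = 0.0379) and HHIP (-0.49, adjusted p = 0.047) met the threshold.

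Other genes of small p were lower as well. FETUB, the secreted protease inhibitor fetuin-B, had a change of -0.44 (SE 0.09, adjusted p = 0.237), from a chow median of 7.48 (range 6.83 to 8.32) to 7.10 (range 6.62 to 7.64). NR5A2, the nuclear receptor LRH-1 that drives bile acid and cholesterol transport genes, had a change of -0.26 (SE 0.06, adjusted p = 0.287), from a median of 8.41 (range 8.11 to 8.80) to 8.17 (range 7.91 to 8.51). Both were lower in 9 of 10 animals with overlapping ranges. IGFBP3, the main carrier of circulating IGF, lay at a median of 10.96 on chow (range 10.67 to 11.15) and 10.57 on HFCS (range 10.36 to 11.23). Its change was -0.29 (SE 0.07, adjusted p = 0.287), again lower in 9 of 10 animals. SLC46A3, a lysosomal transporter, differed by -0.29 (adjusted p = 0.287) and SEPTIN4, a septin of the cytoskeleton, by -0.18 (adjusted p = 0.297), each lower in all 10 animals.

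On the higher side, EGLN2, the oxygen sensor PHD1 that hydroxylates hypoxia-inducible factors, lay between 8.86 and 9.17 on chow (median 8.94) and between 8.94 and 9.48 on HFCS (median 9.17). It was higher in all 10 animals, by 0.23 (SE 0.04, adjusted p = 0.163), with 0.22 in CON and 0.24 in MUN. NPC2, which hands cholesterol on inside the lysosome, was likewise higher in all 10, from a median of 11.38 (range 11.14 to 11.53) to 11.62 (range 11.32 to 11.84). Its change was 0.24 (SE 0.04, adjusted p = 0.163). Another lysosomal protein, GLMP, differed by 0.29 (adjusted p = 0.237) and was higher in 8 of 10 animals. DNAJB11, a co-chaperone of BiP in the endoplasmic reticulum, was higher in all 10 animals with a change of 0.36 (SE 0.08, adjusted p = 0.287), from a median of 9.20 (range 8.33 to 10.11) to 9.53 (range 8.87 to 10.57). The spread between animals was wider than this shift. GPX4, which reduces lipid hydroperoxides, differed by 0.26 (SE 0.06, adjusted p = 0.297) and was higher in 9 of 10 animals. IGLL1, an immunoglobulin lambda-like gene whose probe may also read related light chains, differed by 0.44 (SE 0.09, adjusted p = 0.237), and COL18A1, a basement membrane collagen, by 0.32 (SE 0.07, adjusted p = 0.267). With all 24 liver arrays, the weak ones included, the change of DNAJB11, GLMP, GPX4, COL18A1, TMEM150A, IGFBP3, PSMD6 and SEPTIN4 took the other sign.

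**Figure D1:**
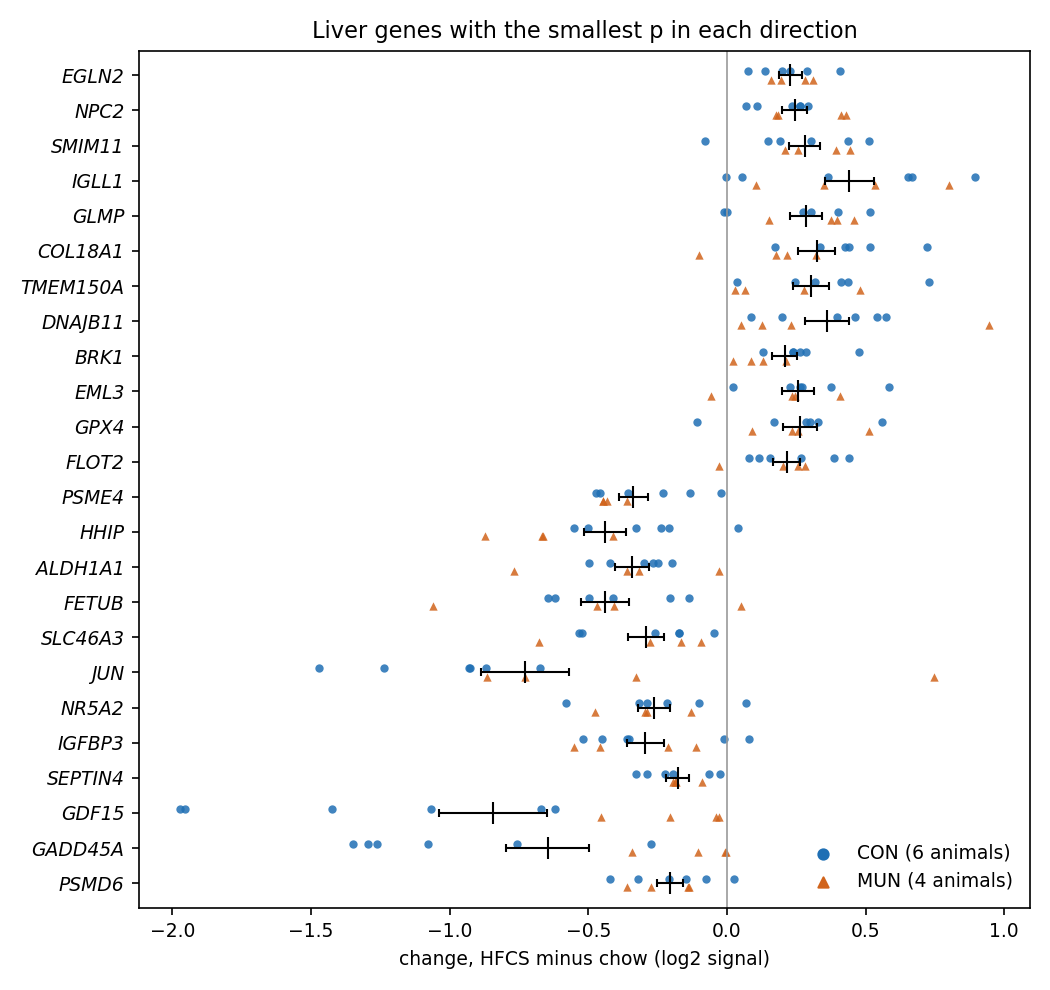
Change in log2 level (HFCS minus chow) of the 12 genes with the smallest p in each direction, a point for each of 10 animals (CON blue circles, MUN orange triangles), with the fitted change and its standard error as a black bar. PSME4 and ALDH1A1 were lower and EGLN2 and NPC2 higher in all 10 animals. GDF15 and GADD45A were also lower in all 10 animals but, like JUN, spread widely and were furthest below 0 in CON.

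To see how far the change was shared, the maternal groups, which hold different animals on jointly normalised arrays, were set side by side. Over all 8725 genes, 49.2% had a change of the same direction in CON and MUN, with Pearson's r = 0.045 and Spearman's rho = 0.004 across genes, which are not independent replicates. In CON 573 genes (6.57%) had an unadjusted p under 0.05 and in MUN 565 (6.48%), and 74 genes were on both lists, 12.9% of the CON list and 13.1% of the MUN list. Both p-values of a gene used the same estimate of its spread, from a joint fit of both groups. A gene with little spread can therefore be on both lists without a shared change, so this overlap is no measure of agreement. Of these 74, 29 were higher in both groups, 22 were lower in both and 23 went in opposite directions. Of 335 genes higher in CON at this p (3.84% of all), 53.4% were also higher in MUN, and of 238 lower in CON (2.73%), 59.7% were lower in MUN. Starting from MUN, 58.0% of 264 higher genes (3.03%) and 51.8% of 301 lower genes (3.45%) had the same direction in CON.

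Genes on both lists in the same direction include some with known parts in lipid and iron handling, named here after their values were seen. NR1H3, the oxysterol receptor LXR-alpha, had a change of 0.19 in CON and 0.25 in MUN (pooled adjusted p = 0.341). ACSL5, which activates long-chain fatty acids, had 0.41 in each group (pooled adjusted p = 0.341). VEGFB, a growth factor of the VEGF family, had 0.25 and 0.36 (pooled adjusted p = 0.306). TFRC, the transferrin receptor that takes up iron, had -0.38 and -0.41 (pooled adjusted p = 0.37). These genes were picked for an unadjusted p under 0.05 and the same direction in both groups. That choice favours values that are alike in the groups, so their closeness is no evidence of sharing. None passed the test.

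**Figure D2:**
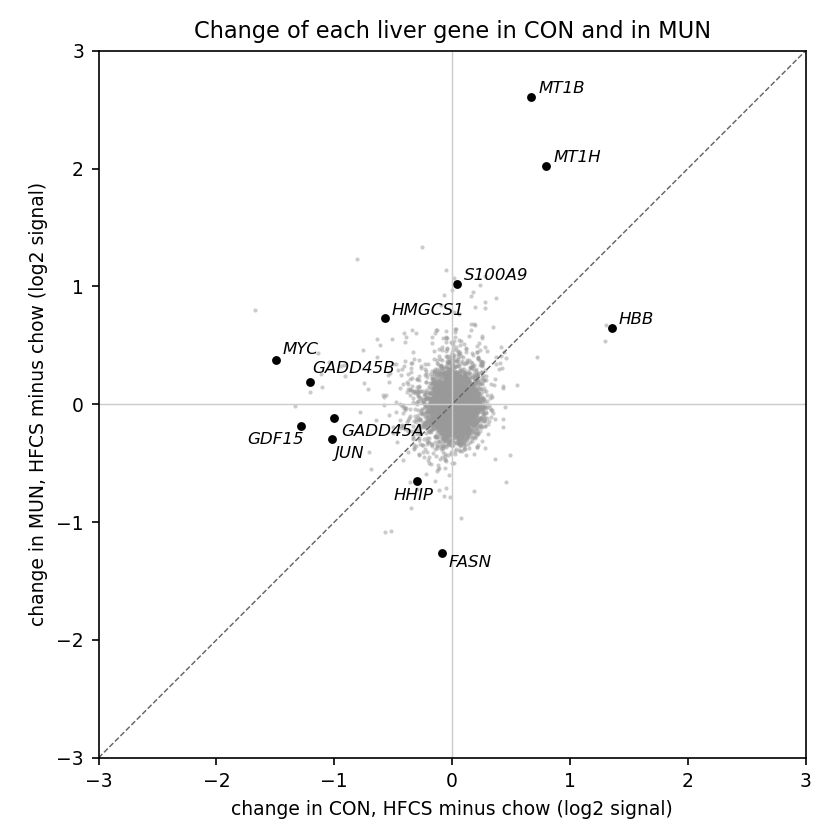
Change in log2 level (HFCS minus chow) of each of 8725 genes in CON (horizontal axis) and in MUN (vertical axis), with the dashed line marking equal change. The cloud has no slope (r = 0.045), and MYC lies far from the line with -1.50 in CON and 0.38 in MUN.

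The change in each group was tested in the joint fit, with the spread of a gene estimated from both groups, so neither was tested alone. For the change in CON, 4 genes were called, all lower on HFCS (4 of 8725, 0.0458%), namely MYC, GADD45A, GDF15 and GADD45B. For the change in MUN no gene was called (0 of 8725, 0.0%, smallest adjusted p = 0.116). With all 24 liver arrays, or without the animal as a block, none of the 4 was called in CON (MYC -1.37 and -1.50, adjusted p = 1.0 in each). MYC, the growth-promoting transcription factor, lay between 8.27 and 10.48 on chow (median 9.41) and between 7.13 and 8.82 on HFCS (median 7.82) in CON. The ranges overlapped, and MYC fell by 1.50 (SE 0.12, adjusted p = 0.000178), lower in 6 of 6 animals. In MUN its chow levels were 7.47, 7.08, 7.42 and 9.34 and its HFCS levels 8.24, 7.35, 7.27 and 9.95 in MUN 1, 2, 3 and 5. MYC was thus higher on HFCS in 3 of 4 MUN animals, by 0.38 on average (adjusted p = 0.731).

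MYC was the 1 gene called for the difference of the change between the groups (1 of 8725, 0.0115%). The change in MUN exceeded that in CON by 1.87 (SE 0.19, adjusted p = 0.0025). On chow, 3 of 4 MUN animals lay below all 6 CON animals, and on HFCS the groups overlapped. The difference was also called with array weights, median scaling, background correction, the authors' normalized values, no fold threshold and each animal left out (adjusted p from 0.000729 to 0.0141). It was not called without the animal as a block (adjusted p = 0.998) or on all 24 arrays (2.39, adjusted p = 0.81), and the other alternatives were not run for it. At an unadjusted p under 0.05, 520 genes (5.96%) differed in their change between the groups.

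GADD45A, which halts the cell cycle after DNA damage, fell in CON by 1.00 (SE 0.12, adjusted p = 0.00919), from a chow median of 9.89 (range 8.75 to 10.21) to 8.66 (range 8.00 to 9.13). In MUN it stood at 8.80, 8.28, 7.89 and 9.66 on chow and at 8.46, 8.18, 7.89 and 9.66 on HFCS. The 4 MUN animals were therefore lower by 0.34 or less. GADD45B, its paralogue, fell in CON by 1.21 (SE 0.16, adjusted p = 0.0102), from a median of 10.18 (range 9.41 to 10.60) to 8.92 (range 8.26 to 9.55). In MUN it stood at 8.52, 8.21, 8.40 and 9.89 on chow and at 9.59, 7.79, 8.27 and 10.12 on HFCS, higher in 2 animals and lower in 2.

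GDF15, a circulating stress hormone of the TGF-beta family, fell in CON by 1.29 (SE 0.17, adjusted p = 0.0102). Its CON levels ran from 7.36 to 8.96 (median 8.23) on chow and from 6.74 to 7.61 (median 6.88) on HFCS. MUN animals had 7.10, 7.01, 6.84 and 7.27 on chow and 6.65, 6.98, 6.64 and 7.24 on HFCS, so the groups did not overlap on chow and did on HFCS. It was detected on 13 of 20 arrays, and its fall in CON was 2.32 after background correction. The difference of the change between the groups was not called for GADD45A (0.89, adjusted p = 0.42), GADD45B (1.40, adjusted p = 0.314) or GDF15 (1.10, adjusted p = 0.566). Each of these 3 genes was lower in 6 of 6 CON animals, but their calls in CON did not hold with every animal left out. Without CON 2 or CON 5, MYC alone was called in CON, and without CON 3, MYC and GADD45A. The change in CON stayed between -1.15 and -0.93 for GADD45A, -1.30 and -1.12 for GADD45B and -1.42 and -1.14 for GDF15 whichever animal was left out.

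**Figure D3:**
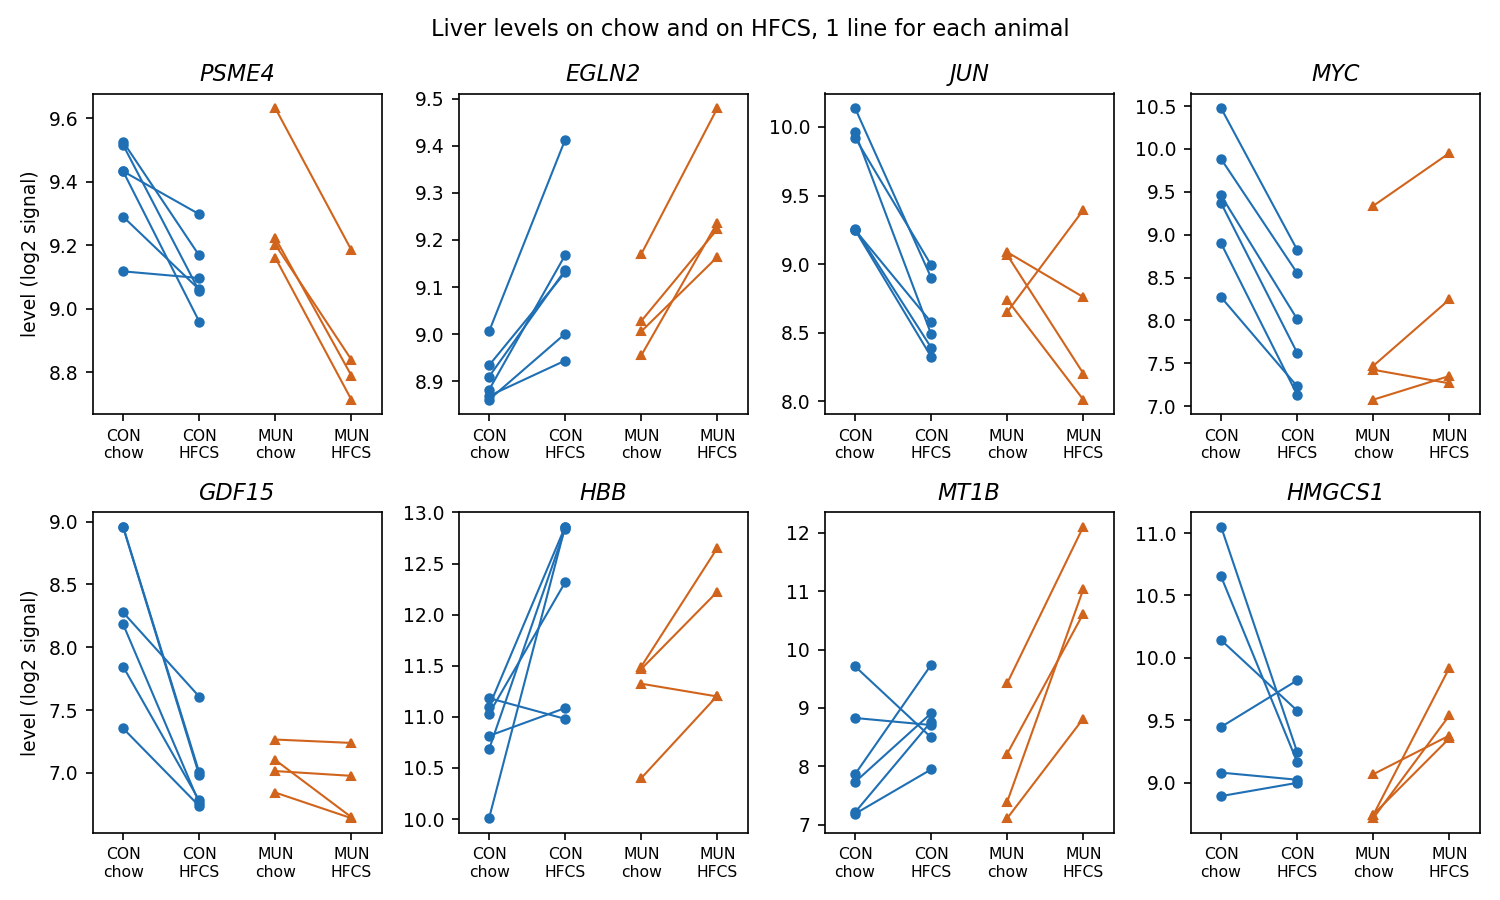
Log2 level on chow and on HFCS of PSME4, EGLN2, JUN, MYC, GDF15, HBB, MT1B and HMGCS1, with a line for each of 10 animals (CON blue, MUN orange). MYC and GDF15 fell in CON from chow levels above most or all MUN animals, and the HMGCS1 lines of all 4 MUN animals slope up.

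The wider list of immediate early and stress genes, which respond to growth factors and injury within minutes, had 32 measured members. Of these, 0 were called, 10 (31.2%) were lower at an unadjusted p under 0.05 and 0 were higher, beside 3.03% and 3.5% of all genes. The median change was -0.23 (-0.36 without MUN 5), against -0.0001 over all genes. JUN, a subunit of the AP-1 transcription factor, lay between 9.25 and 10.14 on chow and between 8.32 and 8.99 on HFCS in CON, with no overlap. In MUN its changes were 0.74, -0.86, -0.73 and -0.33, and the pooled change was -0.73 (SE 0.16, adjusted p = 0.287). Without MUN 1 the pooled change was -0.90 and was called (adjusted p = 0.00463).

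Other members with an unadjusted p under 0.05 were EGR1 (-0.78), ZFP36 (-0.81), JUNB (-0.37), JUND (-0.33) and GADD45G (-0.49), all transcription or stress regulators. JUND was alike in the groups (-0.32 in CON and -0.35 in MUN), whereas ZFP36, which destabilises cytokine mRNA, had -1.34 in CON and -0.01 in MUN. Averaged over the list, all 6 CON animals were lower on HFCS, by -0.06 to -0.85, while 2 of 4 MUN animals were lower and 2 higher (-0.21 to 0.36). The list's mean level on chow ran from 8.16 to 9.15 in CON and from 8.14 to 8.41 in MUN, and on HFCS from 8.11 to 8.30 and from 7.93 to 8.65. 

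Among the lipid pathways, cholesterol synthesis had 14 measured members, with a median of -0.12. Of these, 3 (21.4%, beside 3.03% of all genes) were lower at an unadjusted p under 0.05. These were EBP (-0.27), SC5D (-0.24) and TM7SF2 (-0.23), enzymes of the steps after lanosterol. The list median was -0.16 in CON and 0.01 in MUN, and the list mean was lower in 5 of 6 CON animals and higher in 3 of 4 MUN animals. HMGCS1, which makes HMG-CoA, had a mean change of -0.57 in CON and 0.73 in MUN. MUN animals stood at 8.72, 8.74, 8.74 and 9.07 on chow and at 9.54, 9.92, 9.36 and 9.38 on HFCS, with no overlap and 4 of 4 higher. CON ranged from 8.89 to 11.05 on chow and from 9.00 to 9.82 on HFCS, with 2 animals below -1 in change (CON 1 at -1.49 and CON 2 at -1.81). MSMO1, a sterol methyl oxidase, had -0.61 in CON and 0.50 in MUN, and SQLE, squalene epoxidase, which was detected on 11 of 20 arrays, had -0.50 and 0.34. The difference between the groups was not called for HMGCS1 (1.30, SE 0.39, adjusted p = 0.63), MSMO1 (adjusted p = 0.566) or SQLE (adjusted p = 0.707).

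Bile acid genes had 15 measured members, 5 of them (33.3%, beside 3.03% of all genes) lower at an unadjusted p under 0.05 and 0 higher, with a median of -0.09. They were ABCC2, the canalicular export pump MRP2 (-0.30, SE 0.08, adjusted p = 0.341), ABCB11, the bile salt export pump (-0.34, SE 0.11, adjusted p = 0.478), the uptake carrier SLCO1B3 (-0.21), the reductase AKR1C4 (-0.29) and the repressor NR0B2, also called SHP (-0.31). ABCC2 lay between 8.69 and 9.18 on chow (median 8.93) and between 8.26 and 8.90 on HFCS (median 8.65), lower in 9 of 10 animals. ABCB11 went from a median of 9.30 (range 8.50 to 9.72) to 8.99 (range 8.48 to 9.30), lower in 8 of 10. The ranges overlapped for both pumps, and the list median was below 0 in each group (-0.14 in CON and -0.09 in MUN). With all 24 liver arrays it was 0.21, and the change of NR0B2 was -0.20 without MUN 1.

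Fatty acid synthesis had 14 measured members, with a median of -0.10 (-0.03 without MUN 5). At an unadjusted p under 0.05, 1 was higher and 1 lower (7.14% each, beside 3.5% and 3.03% of all genes). The lower one was ACACB, an acetyl-CoA carboxylase (-0.32), and the higher one MLXIPL, which encodes ChREBP (0.17). FASN, fatty acid synthase, varied more between animals than with the diet: it lay between 7.82 and 12.85 on chow and between 8.30 and 12.08 on HFCS. Its change was -0.56 (SE 0.46, adjusted p = 0.918), from -4.39 in MUN 5 to 1.44 in CON 2, and was -0.13 without MUN 5. SCD, the stearoyl-CoA desaturase, had -0.56 (SE 0.38), higher in 5 and lower in 5 animals, and -0.28 without CON 6. SREBF1, the regulator of this pathway, had -0.08 and SREBF2, that of cholesterol synthesis, 0.02, and these were detected on 8 and 5 of 20 arrays.

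Fatty acid oxidation had 21 measured members, 16 with a change above 0 (76.2%, beside 49.9% of all genes). None had an unadjusted p under 0.05, and the median was 0.10. The mean over the list was higher in 5 animals and lower in 5, highest in MUN 5 (0.71) and CON 6 (0.51), and the median was 0.07 without CON 6 and -0.09 in females alone. Fructose and sugar handling (10 measured) had 1 lower gene at that p, the pyruvate kinase PKLR (-0.36). PKLR had -0.113 in CON, with 3 animals higher and 3 lower. MUN animals had -0.725, lower in 4 of 4, without a call for MUN minus CON (-0.612, adjusted p = 0.807). The mean over this list was lower in 3 of 6 CON animals and in 4 of 4 MUN animals. Gluconeogenesis (15 measured) had 1 lower gene at that p, TAT, a tyrosine aminotransferase (-0.41, SE 0.12, adjusted p = 0.383). TAT is also a glucocorticoid target, as is KLF9 (-0.28), and these were the 2 of 15 in that list. Glycogen metabolism (8 measured) and lipid droplet genes (12) had none, with GBE1 at -0.09 and DGAT2 at -0.21 as the members of smallest p. Apolipoprotein genes (20 measured) had 2 lower (10.0%), APOC3, an inhibitor of triglyceride clearance (-0.28), and APOA1 of HDL (-0.10). Of all genes, 3.03% were lower at that p.

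The growth hormone and IGF axis had 14 measured members, 12 with a change below 0 (85.7%), whereas 49.9% of all genes had one above 0. At an unadjusted p under 0.05, 3 were lower (21.4%, beside 3.03% of all genes). Beside IGFBP3 these were GHR, the growth hormone receptor (-0.32), and IGFALS, which stabilises the IGF complex (-0.15) and was detected on 6 of 20 arrays. The list median was -0.13, with -0.18 in CON and -0.04 in MUN.

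Genes of protein folding differed among themselves. Of 19 measured members of the unfolded protein response, 11 had a change above 0 and 8 below, with a median of 0.03. This median took the other sign with all 24 liver arrays, with array weights, in females alone, and without CON 5 or MUN 5. At an unadjusted p under 0.05, 4 were higher (21.1%) and 2 lower (10.5%), beside 3.5% and 3.03% of all genes. The higher ones were chaperones or their partners, DNAJB11 (0.36), SDF2L1 (0.49), CANX, which is calnexin (0.22), and HYOU1 (0.19). The lower ones belong to the ATF4 branch, ATF4 itself (-0.12, detected on 11 of 20 arrays) and its target TRIB3 (-0.22). ATF4 had -0.036 in CON and -0.255 in MUN. These members were picked by p, and the branches as a whole were not compared. XBP1, which drives chaperone genes, had 0.05. Heat shock genes (14 measured) had none at that p, and HSPE1 had the smallest p of the list (-0.16).

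Of 26 proteasome subunits, 23 (88.5%) had a change below 0, whereas 49.9% of all genes had one above 0. At an unadjusted p under 0.05, 2 were lower (7.69%, beside 3.03% of all genes), among them PSMD6 of the regulatory particle (-0.21, SE 0.05, adjusted p = 0.306). The list median was -0.04. Of 17 NRF2 targets (median -0.03), GPX4 was higher and NQO1, a quinone reductase, lower (-0.35, and -0.23 without MUN 5) at that p. Cytochrome P450 genes (21 measured, median -0.05) had CYP26A1, which breaks down retinoic acid, at -0.74 (SE 0.19, adjusted p = 0.341), and CYP2A7, whose probe may also read near-identical relatives, at -0.35. CYP3A43 was the member higher at an unadjusted p under 0.05 (0.30, SE 0.13). CYP26A1 lay between 7.98 and 10.00 on chow (median 8.82) and between 7.48 and 9.45 on HFCS (median 8.02), with overlap, and was lower in 8 of 10 animals.

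Metallothioneins bind zinc and copper. MT1B lay between 7.11 and 9.71 on chow (median 7.80) and between 7.95 and 12.11 on HFCS (median 8.86). Its change was 1.45 (SE 0.37, adjusted p = 0.341), higher in 8 of 10 animals, with 0.67 in CON and 2.61 in MUN. In MUN it stood at 9.43, 8.22, 7.39 and 7.11 on chow and at 12.11, 10.62, 11.04 and 8.82 on HFCS, higher in 4 of 4, and the difference between the groups was not called (1.94, adjusted p = 0.58). MT1H had 1.29 (SE 0.41, adjusted p = 0.478), MT1E 0.47 (SE 0.22) and MT2A 0.05 (SE 0.23). In all, 2 of 8 measured members of the list (25.0%, beside 3.5% of all genes) were higher at an unadjusted p under 0.05. The list median was 0.04 (-0.09 without MUN 5), with -0.09 in CON and 0.62 in MUN. The list mean was higher in 4 of 6 CON animals and in 4 of 4 MUN animals. The MT1 genes are near-identical, so their probes may read each other's transcripts.

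**Figure D4:**
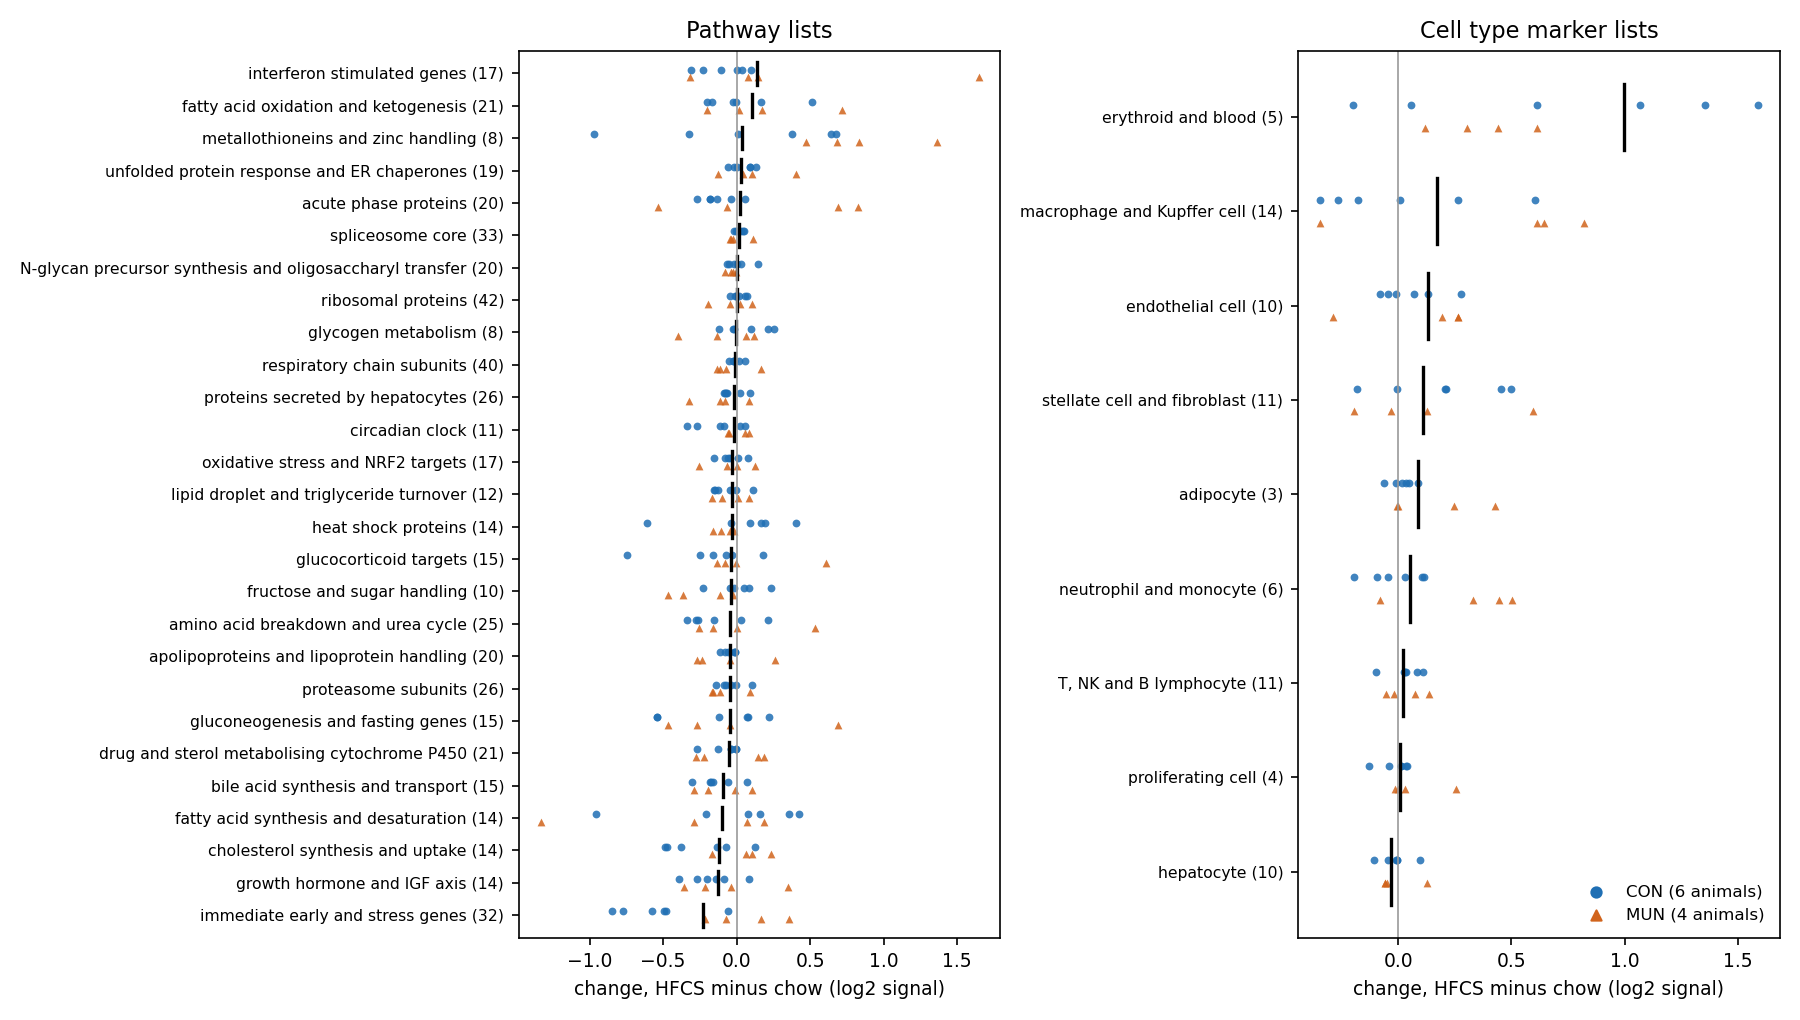
Mean change in log2 level (HFCS minus chow) over each gene list, a point for each of 10 animals (CON blue circles, MUN orange triangles), with the median of the members' fitted changes as a black line and the number of measured genes in brackets. The immediate early list was below 0 in all 6 CON animals, the blood list above 0 in 9 of 10 animals, and 1 MUN animal stood apart in the interferon list at 1.65.

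Interferon-stimulated genes (17 measured) had a median of 0.14 with 1 higher gene, the antiviral OASL (0.10), and the median was -0.06 without MUN 2. Acute phase proteins (20 measured) had none at an unadjusted p under 0.05, with ITIH3, an inter-alpha-trypsin inhibitor chain, at 0.16. The clock list (11 measured) had 1 lower, BHLHE40, a repressor of clock genes (-0.68, SE 0.29), with -1.21 in CON and 0.11 in MUN. Amino acid breakdown (25 measured) had 3 lower, among them CTH, which makes cysteine (-0.36), and proteins secreted by hepatocytes (26 measured) had FETUB and AMBP lower. Ribosomal proteins (42 measured) had 1 lower, RPL13 (-0.15, detected on 14 of 20 arrays). Respiratory chain subunits (40) had 3 lower, among them NDUFB9 of complex I (-0.19). Spliceosome genes (33) had 1 higher, SNRNP70 of the U1 particle (0.18), and N-glycan synthesis (20) had 1 lower, ALG14 (-0.15). Over the 38 lists, 574 genes were measured and 0 were called. At an unadjusted p under 0.05, 22 of them were higher (3.83%, beside 3.5% of all genes) and 44 lower (7.67%, beside 3.03%).

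Regulators named in the study of this tissue were also without a call. CEBPB, a liver transcription factor of the acute response, had -0.32 (SE 0.12), with -0.59 in CON and 0.08 in MUN. FOXO1, which drives gluconeogenic genes, had -0.17, with -0.37 in CON and 0.13 in MUN. Its difference between the groups was not called (adjusted p = 0.807). NFKBIA, the inhibitor of NF-kB, had -0.16 (-0.07 without MUN 2), the stress protein NUPR1 0.07 and STAT3 of cytokine signalling 0.01.

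Blood and non-parenchymal markers were read in the same arrays. Of 5 measured erythroid genes, 3 (60.0%, beside 3.5% of all genes) were higher on HFCS at an unadjusted p under 0.05, with a list median of 1.00. HBB, beta globin, lay between 10.01 and 11.49 on chow (median 11.07) and between 10.98 and 12.86 on HFCS (median 12.27). Its change was 1.07 (SE 0.26, adjusted p = 0.319), higher in 8 of 10 animals, with 1.36 in CON and 0.65 in MUN. HBA1 (1.05) and HBA2 (1.00) had the same size, and their probes may read both alpha globin genes. The erythroid enzyme ALAS2 had -0.08 and the globin chaperone AHSP -0.06. The mean level of the list ran from 8.54 to 9.51 on chow and from 9.05 to 10.42 on HFCS over all animals.

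Hepatocyte genes had a list median of -0.03 and 1 of 10 lower at an unadjusted p under 0.05. Of 14 macrophage genes 2 were higher at that p (14.3%, beside 3.5% of all genes), LYZ, which is lysozyme (0.59, SE 0.20), and CD68 (0.14). The list median was 0.01 in CON and 0.45 in MUN. The list's mean level ran from 8.21 to 9.25 on chow and from 8.27 to 9.33 on HFCS. Of 11 stellate cell and fibroblast genes (median 0.11, and 0.06 without MUN 2) 3 were higher at that p (27.3%, beside 3.5% of all genes). They were ACTA2, smooth muscle actin (0.59, SE 0.19), COL1A1 (0.36) and COL1A2 (0.38, and 0.25 without MUN 2) of type I collagen. Of 10 endothelial genes (median 0.13) 2 were higher (20.0%). S100A9, a calcium-binding protein of neutrophils and monocytes, was the 1 of 6 in its list (0.43), with 0.04 in CON and 1.02 in MUN, and none of 11 lymphocyte genes had such a p. The part of blood and of other cell types in the changes of other genes was not tested.

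Females and males were compared in the same pairs. No gene was called for the difference of the change between 6 females and 4 males (0 of 8725, 0.0%, smallest adjusted p = 0.958), and 405 genes (4.64%) had an unadjusted p under 0.05. Across genes, 51.5% had a change of the same direction in both sexes (r = 0.157). HBB had 0.68 in females and 1.66 in males, and MT1B 2.09 and 0.48, neither with a call.

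The change in liver was last set against that in adipose tissue (10 animals) and skeletal muscle (9 animals) of the same animals. No gene was called for the difference between liver and adipose (0 of 7439, 0.0%, smallest adjusted p = 0.0696) or between liver and muscle (0 of 6561, 0.0%, smallest adjusted p = 0.242). At an unadjusted p under 0.05 the counts were 738 (9.92%) and 580 (8.84%). PSME4 had -0.15 in adipose and 0.01 in muscle, and EGLN2 had -0.07 and -0.06. HBB had 0.27 in adipose and -0.83 in muscle, JUN 0.20 and 0.14, and GADD45A 0.03 and 0.67, each without a call for the difference from liver.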

How the data were processed

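Per the labels, RNA from each biopsy was labelled and hybridised to 1 Illumina HumanHT-12 v4 array. The authors extracted signals in GenomeStudio and analysed them in Partek (versions not given in the sources used here). The deposited table holds linear probe intensity (62.1 to 36505.6 over all 72 arrays) without normalization, and a detection score that rises towards 1 with signal although its header calls it a p-value. The normalized intensity values that the authors deposited beside it served as an alternative. No per-sample column was left unassigned (0). The number of arrays limits the precision.

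Liver log2 intensities of the 20 arrays were quantile normalized without background correction. Probes with a score over 0.95 on at least 5 arrays were kept, and the brightest probe with 1 gene symbol stood for a gene (23458 probes had 1 symbol, 7 several). The paired fit (animal and diet, limma 3.58.1 in R 4.3.3) gave two-sided p-values with Benjamini-Hochberg adjustment over all genes, and differences between groups and sexes came from interaction terms. The changes in CON and in MUN came from the same joint fit as their difference. Tissues were compared by a limma test of each animal's liver change minus its change in the other tissue. Each tissue was normalized on its own. The scripts were tested on simulated data. The pairing comes from the animal number in the sample titles: deviations of the arrays of an animal correlated at 0.183 to 0.614 (median 0.356), above 0.1 in 10 of 10 animals.

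The members, the 38 gene lists (27 pathway, 11 cell type) and the tests were chosen with earlier results of these data and the study known, and are no independent evidence. Genes named by rule were the called genes, the member of smallest p in each pathway list and 11 regulators that the study names. All others were chosen after their values were seen.

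Alternatives covered the block, arrays, filter, background, normalization, probes, weights, moderation, fold, group weight, sex and each animal. No sequence was used.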

Additional observations from a re-analysis of the deposited data

Results flagged for a closer look

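Single animals stood far from the other 9 in 13 sets of 10 changes, 9.49% of the genes and lists examined. Chance flags about 1 in 20 such sets. Among named genes, MUN 1 had the highest change of JUN (0.745, next -0.329) and MUN 5 the highest of MT2A (2.006, next 0.414) and the lowest of SREBF1 (-0.817, next -0.241). MUN 2 had the lowest change of NFKBIA (-0.915, next -0.321), CON 5 the highest of TM7SF2 (0.626, next -0.133) and CON 2 the lowest of VEGFB (-0.286, next 0.212).

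Among list means, MUN 2 stood highest for interferon-stimulated genes (1.647, next 0.143) and proliferation genes (0.258, next 0.04) and lowest for proteins secreted by hepatocytes (-0.323, next -0.114). MUN 5 stood highest for the unfolded protein response (0.407, next 0.134) and apolipoproteins (0.261, next -0.01) and lowest for ribosomal proteins (-0.193, next -0.047). CON 5 stood highest for N-glycan synthesis (0.149, next 0.032).

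The change of MYC differed between the maternal groups, with MUN above CON by 1.873 log2 units (adjusted p = 0.0025 in limma's test of the difference), lower in 6 of 6 CON animals and higher in 3 of 4 MUN animals.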

How the results depend on the processing

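Of 99 named genes, 73 kept the sign of their pooled change under the 14 alternatives and with each animal left out, wherever they were tested. With all 24 liver arrays the sign turned for 20: APOC3 (0.40), ABCC2 (0.26), AKR1C4 (0.26), DNAJB11 (-0.12), CANX (-0.007), XBP1 (-0.51), NUPR1 (-0.06), IGFBP3 (0.084), PSMD6 (0.29), GPX4 (-0.06), MLXIPL (-0.16), FOXO1 (0.26), GLMP (-0.011), COL18A1 (-0.15), TMEM150A (-0.006), SEPTIN4 (0.039), MT2A (-0.38), CD68 (-0.005), ALB (-0.24) and GADD45G (0.19). With those arrays the genes at an unadjusted p under 0.05 numbered 273 in both groups (40 of the list members), 112 in CON, 806 in MUN, 291 for MUN minus CON and 202 for males minus females, with 0 calls in CON and 0 for MUN minus CON. In females alone the sign turned for GBE1 (0.043), SREBF1 (0.085), SREBF2 (-0.004), STAT3 (-0.10) and FASN (0.23), with array weights for SREBF2 (-0.003), STAT3 (-0.009) and MT2A (-0.079), with median scaling for STAT3 (-0.001), and with equal weight of the groups for HMGCS1 (0.079). Array weights gave 9 calls in CON. With probes detected on all 20 arrays 379 genes had an unadjusted p under 0.05, and without the detection filter 965, since fewer or more genes were tested.

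Without the animal as a replicate block, 331 genes had an unadjusted p under 0.05 in both groups (42 of the list members), 307 in CON, 300 in MUN and 271 for MUN minus CON, with 0 calls in CON and 0 for MUN minus CON. It changed no call of the pooled change, of MUN or of the list members, and was not tried for the sex and tissue comparisons. The cause of these shifts was not tested.

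Leaving out each animal gave 0 to 2 calls in both groups (PSME4 and HHIP without CON 3, JUN without MUN 1), 1 to 5 in CON, 0 to 3 in MUN (3 without MUN 5), 1 to 3 for MUN minus CON (MYC, GADD45A and ZFP36 without CON 1), 0 to 3 for liver minus adipose (3 without CON 5) and 0 to 1 among the list members. Genes at an unadjusted p under 0.05 for males minus females ran from 290 (without MUN 5) to 747 (without CON 5). The pooled change ran from -0.114 to 0.006 for SREBF1, -0.009 to 0.044 for SREBF2, -0.025 to 0.095 for XBP1, -0.057 to 0.069 for STAT3, -0.17 to 0.207 for MT2A and -0.189 to 0.143 for HMGCS1. No alternative with the BeadChip as a term was run, because the files used here name no chip. Of the 38 list medians, 7 took the other sign with all 24 arrays, 7 in females alone and 17 in males alone. Dim genes are the least certain.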
